A study of Homo sapiens with 6 samples.

Results

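The genes described here are 10 components and outputs of the Hippo pathway, measured by RNA-seq in HEK293T cells, a line derived from human embryonic kidney. They were the transcriptional co-activators *YAP1* and *WWTR1* (which encodes TAZ), their DNA-binding partners *TEAD1*, *TEAD2*, *TEAD3* and *TEAD4*, the kinases *LATS1* and *LATS2*, and the genes *AMOTL2* and *ANKRD1*. The list was given by name, and its 10 symbols were all found among the 55871 symbols of the count tables and all passed the filter on low counts that left 23345 genes to test. Of the 6 libraries, 3 came from cells with a control short-hairpin RNA (sh-control) and 3 from cells with a hairpin against *RREB1* (sh-*RREB1*), a zinc-finger transcription factor. Both kinds of cell carried a stably integrated lentiviral vector under neomycin selection, grew in DMEM with 10% fetal bovine serum, and gave total RNA for stranded libraries. The study names its hairpin for the RNA-seq as sh1, which the labels do not repeat. The labels do not say whether the 3 libraries of a group came from separate cultures, so the p-values measure the spread between these libraries, which may be technical.

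In the Hippo pathway, a kinase cascade ends in LATS1 and LATS2, which phosphorylate YAP and TAZ and so keep them in the cytoplasm or mark them for degradation. When the kinases are inactive, YAP and TAZ enter the nucleus, bind TEAD proteins and switch on growth genes such as *ANKRD1*, *CCN1* and *CCN2*. Among the targets are also inhibitors of the pathway's own effectors, *LATS2* and *AMOTL2*, which makes a negative feedback loop. Much of this control acts on the proteins, and RNA levels do not measure it.

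*RREB1* itself was measured first, as a check of the labels. Its level was 27.1, 25.2 and 26.6 reads per 1000000 reads on genes (CPM) in the sh-control libraries and 23.7, 24.6 and 23.1 CPM in those labelled sh-*RREB1*. The groups did not overlap, but the log2 fold change (sh-*RREB1* over sh-control, as in all that follows) was −0.14 and did not pass the test (SE 0.13, adjusted p = 0.485 by edgeR), with a 95% interval of the fold of 0.741 to 1.11. With the trend of each library over GC content and gene length taken out, it was −0.36 (adjusted p = 0.0534 by edgeR). The study's own measurements of *RREB1* RNA and protein under this hairpin came from other assays and are not used here. The second group is called by its label throughout.

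The libraries held 12257054 to 33044061 reads on genes. The lowest was sh-*RREB1* replicate 3, in which 52.1% of the aligned reads mapped to several places against 3.66% to 7.63% in the other libraries. A gene was called when its edgeR adjusted p was below 0.01 and its absolute log2 fold change above 1, which held for 795 of all 23345 genes (3.41%), 632 of them higher (2.71%) and 163 lower. With the GC and length trend removed, 706 were called, 426 higher and 280 lower. Without sh-*RREB1* replicate 3, 8 genes were called, and without sh-control replicate 2, 9. Of the genes that mark the line, *VIM*, *KRT8*, *KRT18*, *NEFL*, *NEFM* and *CDH2* each had 3391 to 64866 reads in all, while the kidney factor *PAX2* had 33 reads. *PTPRC* (leukocytes), *PECAM1* (endothelium), *ALB* (hepatocytes) and *DCN* (fibroblasts) had 9, 18, 53 and 20 reads over the 6 libraries, and *HBB* (erythroid cells) had 0.

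Of the 10 Hippo genes, 1 was called, *ANKRD1*, which rose, against 3.41% of all genes. At an adjusted p below 0.05 with no minimum fold change, 3 of the 10 passed (*ANKRD1*, *TEAD2* and *TEAD4*, all higher), against 19.6% of all genes, 10.8% higher and 8.81% lower. The libraries of the 2 groups did not overlap for 4 genes (*ANKRD1*, *TEAD2*, *TEAD3* and *TEAD4*, all higher), against 41.1% of all genes, 21.1% in that direction. These counts over 10 genes were not tested against the shares of all genes and are not read as a property of the list. With the GC and length trend removed, 1 of the 10 was called (*ANKRD1*, against 3.02% of all genes) and 2 passed an adjusted p of 0.05 (*ANKRD1* higher and *AMOTL2* lower, against 22.1%). *ANKRD1* was also the 1 gene of the 10 called by DESeq2 and by edgeR with a block for the replicate number, against 7.06% and 7.22% of all genes. The co-activators, the kinases, *TEAD1* and *AMOTL2* had overlapping groups. The median log2 fold change was 0.04 over the 10 genes and 0.01 over all genes tested.

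**Figure D1:**
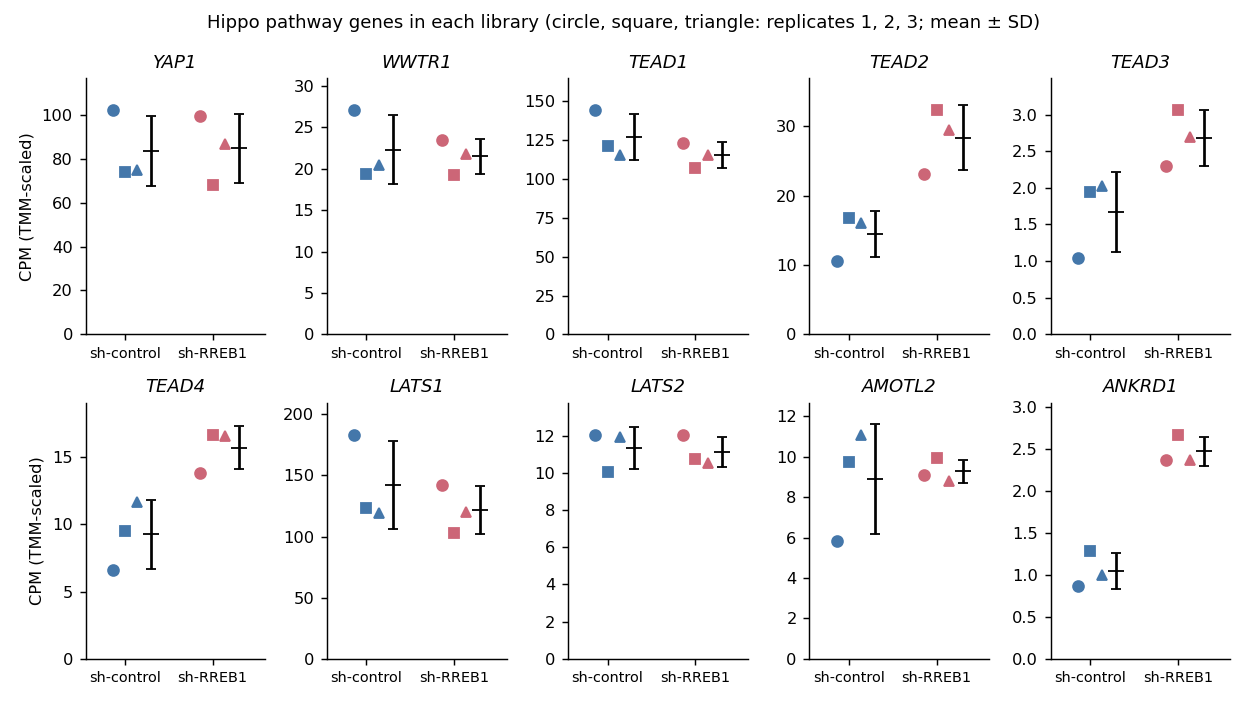
Level of each of the 10 Hippo genes in every library, in CPM on a linear axis that starts at 0. Circles, squares and triangles are replicates 1, 2 and 3 of each group, and the bar is the mean ± SD (n = 3). *ANKRD1*, *TEAD2*, *TEAD3* and *TEAD4* are higher in each library labelled sh-*RREB1* than in any sh-control library, and the groups of the other 6 genes overlap.

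*ANKRD1*, which encodes an ankyrin-repeat protein of the nucleus and sarcomere and is among the most widely used readouts of YAP activity, lies on the minus strand of chromosome 10 (hg38, 90912096 to 90921087). Its promoter is shown because it holds the letters of the TEAD core motif. RefSeq windows ran from 250 bases before to 50 bases after a start of a gene (GRCh38.p14), and some genes had several. GGAATG and its reverse complement CATTCC were searched along the gene's strand, which covers both strands. A gene counted with a match in any window. *ANKRD1* held it at 220 and at 128 bases before its start. The same letters stood in 4 of the 8 Hippo genes of the list that had a window (*YAP1*, *LATS2*, *AMOTL2* and *ANKRD1*) and in 16.7% of the 27305 genes with one. *TEAD1* and *TEAD4* had none in the table. The motif is in capitals in the following 30-base stretches, each read 5′ to 3′ along the gene's own strand.
ANKRD1, chr10:90921290-90921319, minus strand: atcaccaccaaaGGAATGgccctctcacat
ANKRD1, chr10:90921198-90921227, minus strand: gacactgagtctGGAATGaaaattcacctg
YAP1, chr11:102110273-102110302, plus strand: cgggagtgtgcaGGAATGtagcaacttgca
LATS2, chr13:21061560-21061589, minus strand: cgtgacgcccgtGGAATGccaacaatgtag
AMOTL2, chr3:134374499-134374528, minus strand: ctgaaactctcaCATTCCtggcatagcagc
In *YAP1* and *AMOTL2* the motif lay 162 and 69 bases before a start, and in *LATS2* it lay 9 bases after it. *AMOTL2* had 2 windows, and the motif stood in 1 of them. A match of letters is not evidence that a TEAD protein was bound.

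*ANKRD1* was scarce. It had 20, 35 and 32 reads in the sh-control libraries and 59, 70 and 30 reads in those labelled sh-*RREB1*, or 0.870, 1.29 and 0.997 CPM against 2.37, 2.67 and 2.38 CPM. The lowest library labelled sh-*RREB1* stood above the highest sh-control library. The mean rose from 1.05 ± 0.214 to 2.48 ± 0.172 CPM (SD, n = 3), a 2.35-fold change (95% interval 1.63 to 3.38) and a log2 fold change of 1.23 (SE 0.23, adjusted p = 0.00963 by edgeR). With the GC and length trend removed, the log2 fold change was 1.50 (adjusted p = 0.000965 by edgeR). Leaving out any 1 of the 6 libraries ended the call, with adjusted p from 0.0104 without sh-control replicate 1 to 0.0415 without sh-*RREB1* replicate 3, but not its size, 1.09 to 1.37. With the trend removed, the gene was called in 6 of the 6 such fits.

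The strand of the reads mattered for this gene. Reads on the strand opposite to *ANKRD1* numbered 18, 20 and 23 in the sh-control libraries and 10, 11 and 5 in those labelled sh-*RREB1*. They made up 36.4% to 47.4% of all reads at the locus in the first group and 13.6% to 14.5% in the second. Scaled for depth, the opposite-strand level was 0.745 ± 0.0341 CPM against 0.406 ± 0.0124 CPM (SD, n = 3), and the groups did not overlap (two-sided exact permutation test, p = 0.1, the smallest that 3 libraries against 3 allow). The 2 strands thus differed in opposite directions, and with both strands counted together the log2 fold change of *ANKRD1* was 0.71 (adjusted p = 0.0545 by edgeR), which was not called. *TEAD3* also had many reads on its opposite strand, 25.4% to 33.3% in sh-control and 21.9% to 32.0% in the other group, with overlapping groups. What the opposite-strand reads are was not tested.

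The co-activators did not pass the test. *YAP1*, on chromosome 11 (102110447 to 102233424, plus strand), was at 102, 74.0 and 75.0 CPM under the control hairpin and at 99.4, 68.0 and 86.5 CPM under the hairpin labelled sh-*RREB1*. The groups overlapped almost wholly. Its log2 fold change was 0.02 (SE 0.18, adjusted p = 0.960 by edgeR), and the 95% interval of the fold, 0.766 to 1.34, bounds what these libraries could have missed. *WWTR1*, its paralog on chromosome 3, was at 27.0, 19.4 and 20.5 CPM against 23.4, 19.3 and 21.8 CPM, with a fold of 0.964 (95% interval 0.735 to 1.27, adjusted p = 0.867 by edgeR). In both genes, sh-control replicate 1 was the highest of all 6 libraries. Per kilobase of exon, which allows genes to be compared, *WWTR1* made up 16.8% ± 0.301 of the summed level of the pair in sh-control and 16.3% ± 1.29 in the other group (SD, n = 3). That balance differed by −0.526 percentage points (two-sided exact permutation test, p = 0.6). In a bulk sample, a lower level can mean fewer cells with the RNA or less RNA per cell, and these cannot be told apart.

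The *TEAD* genes encode the DNA-binding part of the complex, and none of the 4 was called. *TEAD1*, the most abundant of them, was at 144, 122 and 116 CPM under the control hairpin and at 124, 107 and 116 CPM under the hairpin labelled sh-*RREB1*, with overlapping groups. Its log2 fold change was −0.14 (SE 0.12, adjusted p = 0.465 by edgeR). *TEAD2*, on chromosome 19 (49340595 to 49362457, minus strand), was at 10.6, 16.8 and 16.1 CPM against 23.2, 32.3 and 29.6 CPM. Each library labelled sh-*RREB1* lay above all sh-control libraries. The fold was 1.95 (95% interval 1.40 to 2.73) and the log2 fold change 0.97 (adjusted p = 0.0165 by edgeR), which missed both limits of a call by a small margin. DESeq2 gave it an adjusted p of 0.000468 at a log2 fold change of 0.95, still under the limit on size.

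*TEAD4*, on chromosome 12, was at 6.57, 9.49 and 11.7 CPM under the control hairpin and at 13.8, 16.7 and 16.6 CPM under the hairpin labelled sh-*RREB1*. Its groups did not overlap either, and its log2 fold change was 0.76 (SE 0.22, adjusted p = 0.0435 by edgeR). *TEAD3*, the scarcest paralog, was at 1.04, 1.95 and 2.02 CPM against 2.29, 3.06 and 2.69 CPM, a log2 fold change of 0.66 (SE 0.28, adjusted p = 0.129 by edgeR). In all 3 of these genes, sh-control replicate 1 was the lowest library. Without it, the log2 fold changes of *TEAD2*, *TEAD3* and *TEAD4* were 0.75, 0.39 and 0.53. Over all genes, the chi-square per degree of freedom between sh-control replicate 1 and replicates 2 and 3 was 48.9 and 61.1. Between sh-control replicates 2 and 3 it was 4.73, and among the libraries labelled sh-*RREB1* it was 14.2 to 54.6. This statistic was taken on raw counts and also grows with depth, so its values for pairs of unlike depth are not strictly comparable.

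These differences moved with the base composition of the genes. Exonic GC content was 42.9% in *TEAD1* and 58.9%, 59.6% and 63.3% in *TEAD2*, *TEAD3* and *TEAD4*. With the GC and length trend removed from each library, the log2 fold changes of *TEAD1*, *TEAD2*, *TEAD3* and *TEAD4* were 0.02, 0.23, −0.12 and −0.42. None passed an adjusted p of 0.05 in that fit (edgeR's adjusted p being 0.873, 0.196, 0.695 and 0.0660). When a block for the replicate number was added to it, *TEAD4* was at −0.42 and passed that limit (adjusted p = 0.0325 by edgeR). In these libraries the group and the trend on GC content cannot be told apart for *TEAD2* and *TEAD4*, and *TEAD3* and *TEAD4* turned in direction. *ANKRD1*, at 42.1% GC, is on the other side of that trend, and its difference grew when the trend was removed.

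**Figure D2:**
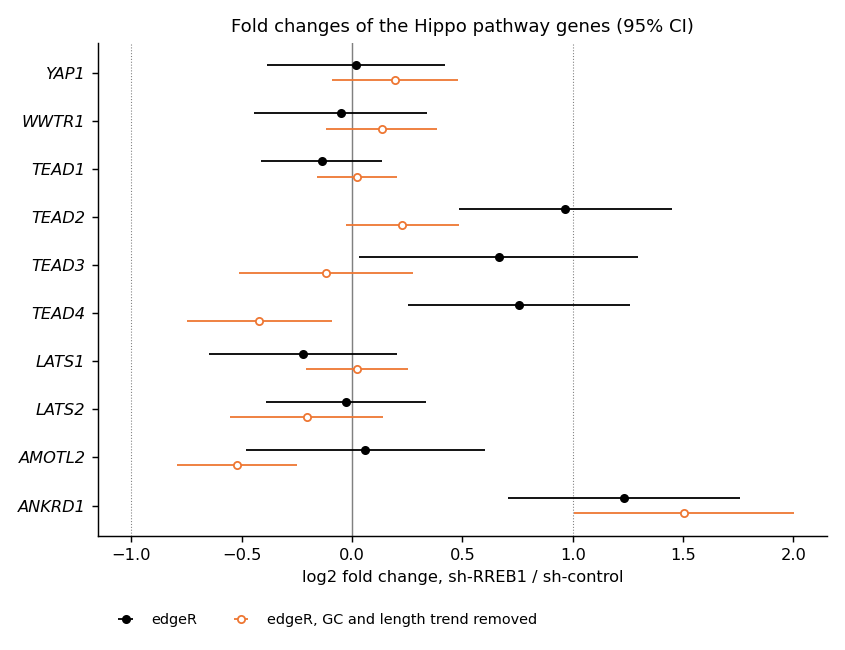
Log2 fold change of each of the 10 genes, sh-*RREB1* over sh-control, with its 95% interval, from edgeR without and with the GC and length trend removed. *ANKRD1* stays above 1 in both fits, at 1.23 and 1.50, while *TEAD2* goes from 0.97 to 0.23 and *TEAD4* from 0.76 to −0.42.

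Within each library, the share of every paralog in the summed *TEAD* level per kilobase of exon needs no scaling between libraries. *TEAD1* made up 66.5%, 52.1% and 49.1% of it in sh-control and 44.1%, 34.4% and 37.4% in the other group. Every sh-control library was above every library of the other group, and the means differed by −17.3 percentage points (two-sided exact permutation test, p = 0.1, the smallest possible). *TEAD2* took 17.6%, 25.8% and 24.5% against 29.7%, 37.1% and 34.3%, a difference of 11.1 points, again without overlap (p = 0.1, same exact test). *TEAD4* took 18.9% ± 4.55 against 24.5% ± 1.09 (SD, n = 3), and these groups overlapped (exact p = 0.2). The summed level of the family was 21.4 ± 0.951 CPM per kilobase in sh-control and 28.1 ± 1.67 in the other group (SD, n = 3), also without overlap (exact p = 0.1). Sh-control replicate 1 had the highest share of *TEAD1*, and without it the difference in that share was −12.0 points. The shares compare genes of unlike GC content, and they were different with the GC and length trend taken out of each library. *TEAD1* then made up 46.3% ± 1.68 and 47.9% ± 2.87 (SD, n = 3), with overlapping groups and a difference of 1.54 points (exact p = 0.5). The share of *TEAD2* differed by 4.82 points and that of *TEAD4* by −6.19 points, both without overlap (exact p = 0.1 each). The lower share of *TEAD1* was thus not seen with the trend removed, the share of *TEAD4* turned in direction, and that of *TEAD2* kept its direction.

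**Figure D3:**
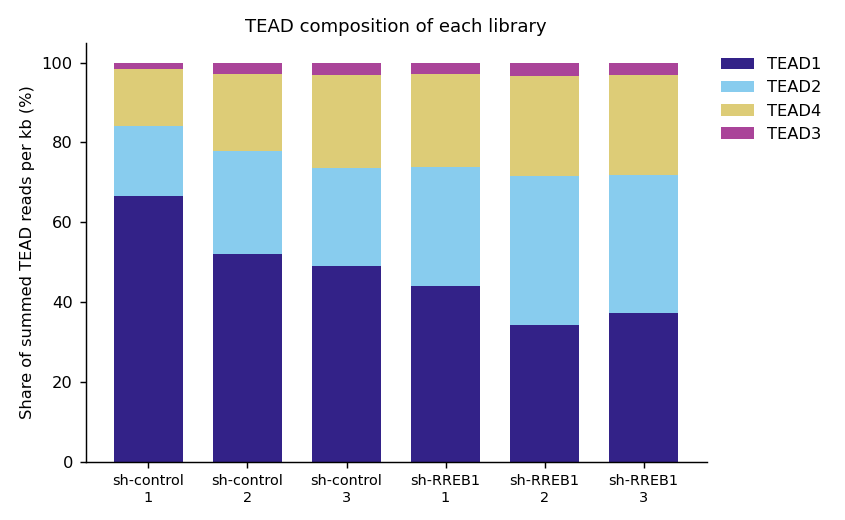
Share of each of the 4 *TEAD* genes in their summed level per kilobase of exon, in percent, as 1 stacked bar per library, with the GC and length trend left in. *TEAD1* lies between 49.1% and 66.5% in the sh-control bars and between 34.4% and 44.1% in the sh-*RREB1* bars, while *TEAD2* goes from between 17.6% and 25.8% to between 29.7% and 37.1%. With the trend removed the mean share of *TEAD1* is 46.3% and 47.9%.

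The LATS kinases, the last step of the cascade, did not pass the test. *LATS1*, on chromosome 6, was at 183, 123 and 119 CPM under the control hairpin and at 142, 103 and 120 CPM under the hairpin labelled sh-*RREB1*, a log2 fold change of −0.22 (SE 0.19, adjusted p = 0.450 by edgeR). *LATS2*, on chromosome 13, was at 12.0, 10.0 and 11.9 CPM against 12.0, 10.7 and 10.5 CPM. Both groups of *LATS2* lay within the same narrow range, and its fold was 0.981 (95% interval 0.763 to 1.26, adjusted p = 0.923 by edgeR). The share of *LATS2* in the pair per kilobase was 11.0% ± 2.04 and 12.2% ± 1.20 (SD, n = 3; two-sided exact permutation test, p = 0.4). *LATS2* is also a YAP target, so it is counted among the targets below as well.

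*AMOTL2*, an angiomotin family member that binds YAP and holds it in the cytoplasm, is a target with a feedback role. It was at 5.83, 9.74 and 11.1 CPM under the control hairpin and at 9.10, 9.93 and 8.80 CPM under the hairpin labelled sh-*RREB1*. The sh-control libraries spread over a wider range than the other group and enclosed it. Its log2 fold change was 0.06 (SE 0.24, adjusted p = 0.891 by edgeR). With the GC and length trend removed, it was −0.52 (adjusted p = 0.0117 by edgeR), past an adjusted p of 0.05 but short of a call, and its exonic GC content was 57.0%. *AMOTL2* and *ANKRD1*, which are both read as outputs of YAP, thus stood on opposite sides of 0 in that fit.

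The levels of the 10 genes per kilobase of exon spanned a wide range in sh-control, from 16.7 ± 4.22 CPM per kilobase for *LATS1* to 0.548 ± 0.179 for *TEAD3* (SD, n = 3). *LATS1*, *YAP1* at 13.2 ± 2.51 and *TEAD1* at 11.9 ± 1.41 led the order, and the ranges of neighbours overlapped among these. *TEAD2* at 4.86 ± 1.13 and *TEAD4* at 4.06 ± 1.13 came next and overlapped each other, and *TEAD4* overlapped *WWTR1* at 2.67 ± 0.496. *LATS2* at 2.02 ± 0.201 and *AMOTL2* at 1.37 ± 0.422 followed without overlap, and *ANKRD1* at 0.587 ± 0.120 overlapped *TEAD3*. In the libraries labelled sh-*RREB1* the order was the same, with *TEAD2* at 9.51 ± 1.57 now overlapping *TEAD1* at 10.8 ± 0.755 in range, and *ANKRD1* at 1.38 ± 0.0960 overlapping *AMOTL2* at 1.43 ± 0.0907. Among 14507 genes with a mean of at least 1 CPM, the profile over the 6 libraries most like that of *YAP1* was that of *DIAPH2* (Pearson r of log2 CPM 0.997), followed by *PDE3B* (0.995) and *CDC73* (0.992). These correlations share the libraries' depth and base composition, and the GC content of the 3 genes was 39.4%, 39.3% and 36.5%, against 43.3% in *YAP1*.

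The wider set of YAP and TAZ targets, a signature of 22 genes that includes *LATS2*, *AMOTL2* and *ANKRD1*, was tested in full. Of the 22, 2 were called, both higher (*ANKRD1* and *FJX1*), and 5 passed an adjusted p of 0.05, 3 higher (*ANKRD1*, *FJX1* and *FOXF2*) and 2 lower (*CCN2* and *MYOF*), against 3.41% and 19.6% of all genes. With the trend removed, *ANKRD1* was the 1 gene called of the 22, against 3.02% of all genes, and 9 passed an adjusted p of 0.05, 5 higher and 4 lower, against 22.1%. The median log2 fold change of the signature was 0.11, and −0.14 with the trend removed, against 0.01 and −0.03 over all genes.

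*CCN2* (connective tissue growth factor) and *CCN1* (CYR61), matricellular proteins named here for their common use as YAP readouts and after their values were seen, stood on the other side of 0 from *ANKRD1*. *CCN2* was at 5.35, 4.78 and 4.55 CPM under the control hairpin and at 2.17, 3.13 and 3.41 CPM under the hairpin labelled sh-*RREB1*. Its groups did not overlap, and its log2 fold change was −0.77 (SE 0.22, adjusted p = 0.0390 by edgeR), or −0.89 with the trend removed (adjusted p = 0.00803 by edgeR). *CCN1* was at 4.13, 3.49 and 4.14 CPM against 2.25, 3.13 and 3.01 CPM, without overlap, at a log2 fold change of −0.49 (adjusted p = 0.128 by edgeR). *MYOF* (myoferlin, a membrane repair protein), also named after its values were seen, had a log2 fold change of −0.93 (adjusted p = 0.0234 by edgeR) and of −0.89 with the trend removed. Neither *CCN2* nor *MYOF* reached the size of a call in these fits. The promoter of *CCN2* is shown beside that of *ANKRD1* because it carries the same letters in 3 places, 169, 104 and 95 bases before the start.
CCN2, chr6:131951524-131951553, minus strand: ttttcagacggaGGAATGctgagtgtcaag
CCN2, chr6:131951455-131951484, minus strand: ggtggggaGGAATGcgaGGAATGtccctgt
The motif stood in 9 of the 16 signature genes with a RefSeq window, against 16.7% of all genes with one. These 9 included *ANKRD1* and *CCN2*, which differed in opposite directions.

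**Figure D4:**
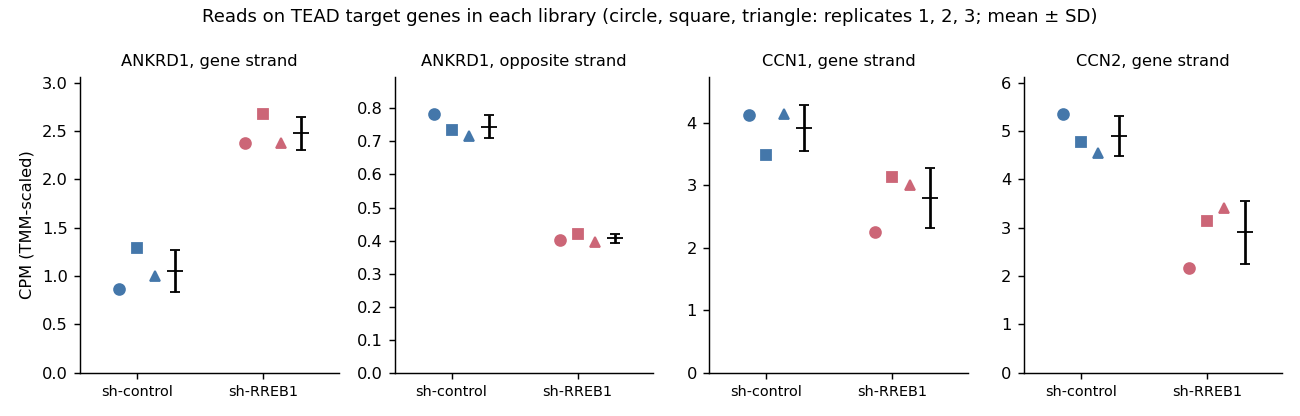
Level of *ANKRD1* on its own strand, of the strand opposite to it, and of *CCN1* and *CCN2* in every library, in CPM on linear axes that start at 0, with circles, squares and triangles for replicates 1, 2 and 3 and the mean ± SD (n = 3). *ANKRD1* is higher in each library labelled sh-*RREB1* than in any sh-control library, and the other 3 panels show the opposite order.

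*FJX1*, the human relative of a fruit fly protein of planar cell polarity, was at 3.52, 4.38 and 5.26 CPM under the control hairpin and at 9.98, 11.0 and 8.96 CPM under the hairpin labelled sh-*RREB1*. It rose by a log2 fold change of 1.19 (SE 0.20, adjusted p = 0.00684 by edgeR). Its exonic GC content was 64.0%, and with the trend removed its log2 fold change was −0.08 (adjusted p = 0.809 by edgeR). The forkhead factor *FOXF2*, at 63.6% GC, went from 0.94 (adjusted p = 0.00595 by edgeR) to −0.37 in the same way. *TGFB2*, a ligand of the TGF-β family at 42.3% GC, had a log2 fold change of 0.99 (adjusted p = 0.0507 by edgeR) and of 1.18 with the trend removed (adjusted p = 0.0106 by edgeR). *GADD45A*, a stress gene, and *CRIM1*, the targets of highest level per kilobase that were not called, had log2 fold changes of 0.28 and 0.03, and of −0.37 and 0.08 with the trend removed.

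The other components of the pathway were taken from a list of 43 kinases, adaptors, upstream regulators and cofactors, of which 42 could be tested (*VGLL1* had 1 read, and *PTPN14* is also in the signature). Of these 42, 1 was called, *NF2*, which rose, and 13 passed an adjusted p of 0.05, 6 higher and 7 lower, against 3.41% and 19.6% of all genes. With the trend removed, 3 were called, *NF2* and *VGLL3* higher and *RASSF1* lower, against 3.02% of all genes, and 17 passed an adjusted p of 0.05, 9 higher and 8 lower, against 22.1%. The median log2 fold change was −0.01, against 0.01 over all genes.

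*NF2*, on chromosome 22 (29603556 to 29698598, plus strand), encodes merlin, a membrane-linked scaffold and tumour suppressor that activates the LATS kinases. It was at 40.4, 46.2 and 50.4 CPM under the control hairpin and at 136, 155 and 126 CPM under the hairpin labelled sh-*RREB1*. The groups lay far apart compared with their spread, with means of 45.7 ± 4.98 and 139 ± 14.8 CPM (SD, n = 3). The fold was 3.05 (95% interval 2.48 to 3.75) and the log2 fold change 1.61 (SE 0.13, adjusted p = 0.000940 by edgeR), and with the trend removed it was 1.17 (adjusted p = 3e-05 by edgeR). The call was lost without sh-control replicate 2 (adjusted p = 0.0196 by edgeR) and without sh-*RREB1* replicate 3 (adjusted p = 0.0112 by edgeR), at log2 fold changes of 1.59 and 1.67. In the fit without the trend removed, *NF2* had the largest log2 fold change of the 10 Hippo genes and the 42 other components together, while *LATS1* and *LATS2*, the kinases below it, had values of −0.22 and −0.03. With the trend removed, that of *ANKRD1*, 1.50, was larger.

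Further components are named after their values were seen. Those from *AJUBA* to *VGLL3* had adjusted p below 0.05 by edgeR without reaching the size of a call. They are a selection from the 13 components past that limit, of which 6 were higher and 7 lower. *WWC1* and *VGLL4*, at log2 fold changes of 0.68 and 0.57, were among the higher ones. *AJUBA*, a LIM-domain protein that inhibits LATS, was at 27.3, 27.4 and 28.1 CPM under the control hairpin and at 15.2, 16.4 and 15.3 CPM under the hairpin labelled sh-*RREB1*. The groups were tight and wide apart, with a log2 fold change of −0.82 (SE 0.13, adjusted p = 0.00605 by edgeR) and of −0.997 with the trend removed (adjusted p = 0.000146 by edgeR). The kinases *TAOK3*, which acts at the top of the cascade, and *STK38* and *STK38L*, relatives of LATS, had log2 fold changes of −0.78, −0.64 and −0.72 (edgeR's adjusted p being 0.00961, 0.00756 and 0.0113). With the trend removed these were −0.60, −0.50 and −0.52. *VGLL3*, a cofactor that competes with YAP for TEAD proteins, was at 15.3, 10.3 and 11.2 CPM against 30.2, 16.5 and 24.3 CPM, at a log2 fold change of 0.95 (adjusted p = 0.0295 by edgeR) and of 1.15 with the trend removed (adjusted p = 0.000312 by edgeR), which was a call. The value of *RASSF1*, a scaffold of the MST kinases with 61.2% GC, was −0.05 (adjusted p = 0.889 by edgeR), and it was called in the fit with the trend removed, at −1.06.

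*DCHS1*, a giant cadherin, and *STRN4*, a subunit of the STRIPAK phosphatase that acts on the MST kinases, had the largest values among the components not called, 1.33 and 0.97 (edgeR's adjusted p being 0.0153 and 0.0277). With 61.8% and 62.0% GC, they had log2 fold changes of 0.25 and −0.15 once the trend was removed. *AMOT*, the founding angiomotin, was the most abundant component per kilobase of exon, at 140 ± 8.53 CPM per kilobase in sh-control and 162 ± 7.25 in the other group (SD, n = 3). Its log2 fold change was 0.21 (adjusted p = 0.160 by edgeR). The kinase *STK26* followed it in abundance, with a log2 fold change of 0.03.

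**Figure D5:**
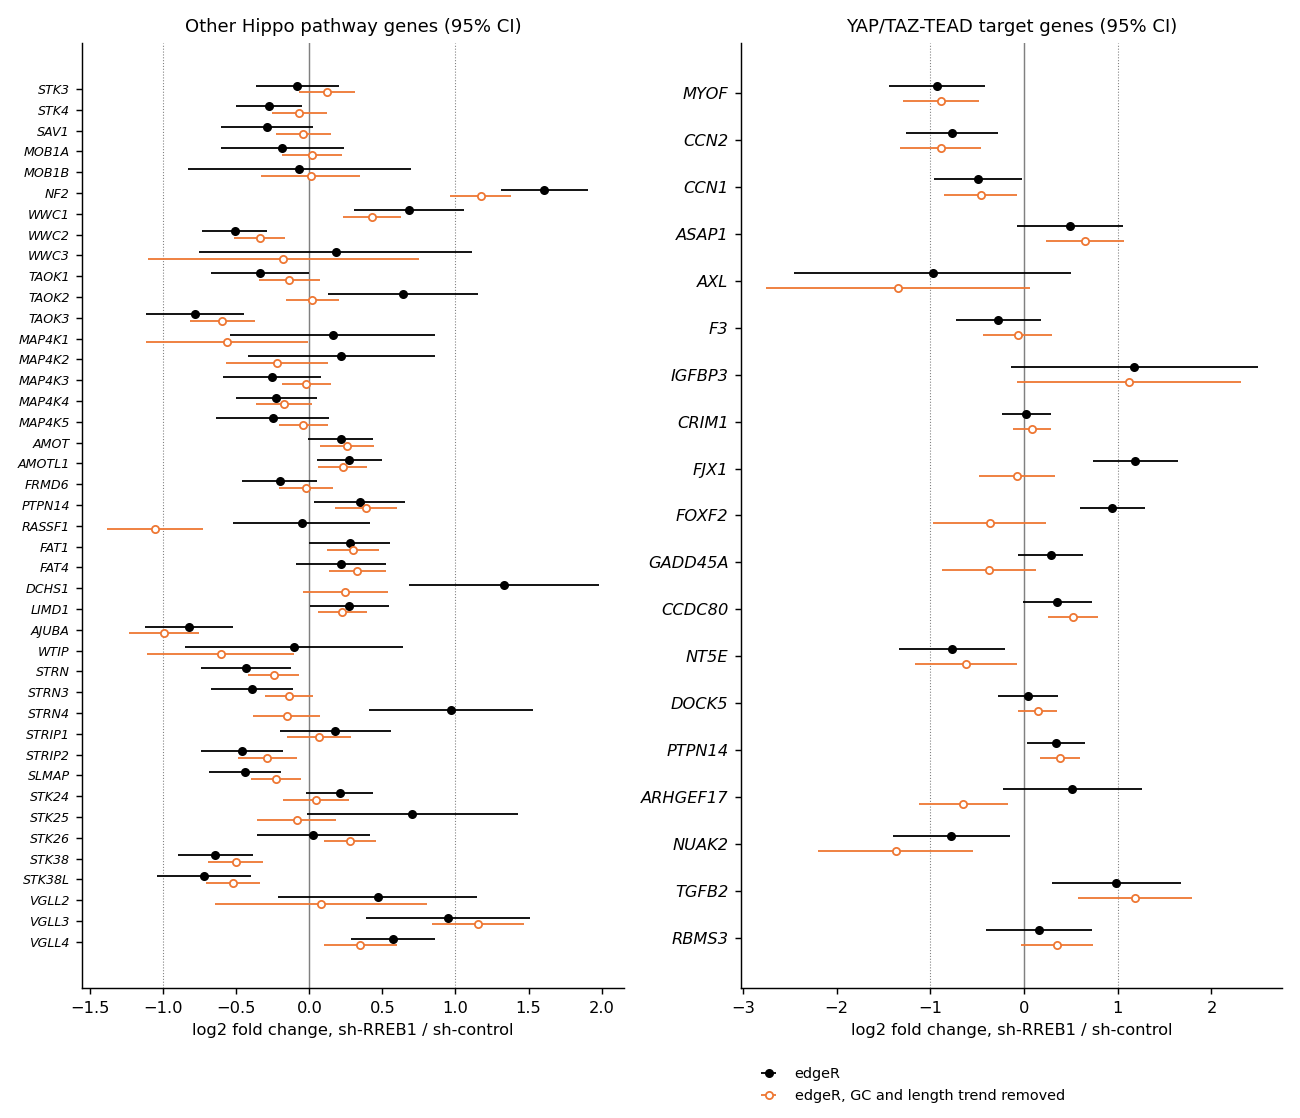
Log2 fold change, sh-*RREB1* over sh-control, with its 95% interval, of the 42 other pathway components (left) and of the 19 target genes that are not among the 10 (right), from edgeR without (filled) and with (open) the GC and length trend removed. *NF2* lies above 1 in both fits, and *FJX1*, *FOXF2*, *DCHS1* and *STRN4* lie near or below 0 in the second fit only.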

How the data were processed

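Total RNA libraries (TruSeq Stranded) of 3 sh-control and 3 sh-*RREB1* samples were aligned by the authors with STAR 2.4.2a to hg38 with Gencode 25, and the deposited tables hold raw read counts per gene and strand, which were not normalized. A merged table of the authors holds the same counts for the genes shared. Counts on the gene's strand were used, and where several identifiers carried 1 symbol, the one with most reads was kept. Genes with at least 10 reads in all were tested with edgeR 4.0.16 (TMM, quasi-likelihood test, condition only, Benjamini-Hochberg adjustment over all genes), and a call needed both an adjusted p under 0.01 and a log2 fold change beyond 1 in size. SE is the log2 fold change over the square root of its F statistic. CPM is scaled by TMM. Positions, exonic lengths and GC content came from Gencode 44. In an alternative fit, a spline of 5 degrees of freedom over GC content and over exonic length was fitted per library and used as an offset. An effect that itself runs with GC content would be lost with it. Depth was 12257054 to 33044061 reads on genes, and for scarce genes counting error limits precision. The fits were also run on simulated counts with a set spread, which need not match the spread between these libraries.

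Other alternatives were DESeq2 1.42.0, other scalings and filters, both strands together, the merged table, the replicate number as a block, a looser threshold, and each library left out. The 10 genes and both lists were chosen with earlier results of these data known. Leaving out libraries with the trend removed, shares with the trend removed, and the opposite strand of *ANKRD1* and *TEAD3*, were added after seeing the data. Named genes were all 10, *RREB1*, the markers, the list genes called, the 2 of highest level per kilobase and the 2 of largest absolute log2 fold change (at 1 CPM or more) not called in each list, and the 3 most like *YAP1*. Genes outside this rule are said to be so.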

Additional observations from a re-analysis of the deposited data

How the results depend on the processing

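The replicate numbers are shared by the groups, and the deviations of same-numbered libraries correlated at 0.501, 0.434 and −0.275. Replicate 1 of sh-*RREB1* correlated best with sh-control replicate 1, and its replicates 2 and 3 with sh-control replicates 3 and 1. Whether same-numbered libraries were handled together was not tested. With the replicate block, 1685 genes were called in place of 795, and 1 of the 10 Hippo genes, 2 other components and 2 targets. DESeq2 called 1647 genes and 2 components, a minimum of 1 read 1804 and 2, and an adjusted p below 0.05 with no minimum fold change 4574 genes, 3 of the 10, 13 components and 5 targets. With both strands together, 0 of the 10 (by edgeR, 3 of them at an unadjusted p under 0.05) and 1 target were called. With the GC and length trend removed, 3 components and 1 target were called, and with the block as well 3 components and 3 targets (2 higher, 1 lower). Leaving out 1 library, with or without the trend removed, gave 8 to 1120 genes, 0 to 1 of the 10, 0 to 4 components and 0 to 2 targets. Over all genes and with the trend left in, the omission of sh-control replicate 2 or 3 left 9 or 384 calls, and that of sh-*RREB1* replicate 1, 2 or 3 left 25, 136 or 8.

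Directions turned for 8 of the 10 genes, none of them called, and for the called target *FJX1* (−0.08 with the trend removed). Under upper-quartile scaling the log2 fold changes of *YAP1* and *AMOTL2* were −0.080 and −0.023. Under edgeR's own filter those of *WWTR1* and *LATS2* were 0.0089 and 0.031. The median of all genes was −0.08 and 0.07 under these settings against 0.01, a shift of about that size. With the trend removed (and with the replicate block added), they were 0.13 (0.14) for *WWTR1*, 0.024 (0.024) for *TEAD1*, −0.12 (−0.11) for *TEAD3*, −0.42 (−0.42) for *TEAD4*, 0.023 (0.031) for *LATS1* and −0.52 (−0.52) for *AMOTL2*. Over the fits that left out 1 library, with and without the trend removed, the ranges were −0.11 to 0.32 for *YAP1*, −0.17 to 0.23 for *WWTR1*, −0.23 to 0.072 for *TEAD1*, −0.15 to 0.79 for *TEAD3*, −0.52 to 0.93 for *TEAD4*, −0.36 to 0.15 for *LATS1*, −0.34 to 0.0054 for *LATS2* and −0.59 to 0.22 for *AMOTL2*, and −1.23 to 0.042 percentage points for the *WWTR1* share. With the trend taken out of each library (added after seeing the data), the shares of *TEAD1*, *TEAD3*, *TEAD4* and *LATS2* differed by 1.54, −0.175, −6.19 and −1.68 points. Beyond the settings' own construction, the cause was not tested. *ANKRD1* kept its direction in each of the 23 settings and its call in 16. The depth of the scarce genes, *ANKRD1* and *TEAD3*, limits what could be detected.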
